A study of Caenorhabditis elegans with 4 samples.

Results

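The 10 genes lys-1 to lys-10 encode the protist-type lysozymes of the nematode Caenorhabditis elegans, and all 10 were found by symbol among the 20392 WormBase identifiers of the deposited count table, where their identifiers run in order from WBGene00003090 (lys-1) to WBGene00003099 (lys-10). They were taken as a family by name, and no measured value enters that rule. The series measured RNA of whole first-stage (L1) larvae in 4 libraries, 2 per group. In one group, called GW1183 mes-4(RNAi) larvae, strain GW1183 with the genotype met-1-/- was grown on bacteria for RNAi of mes-4. In the other, called WT, the wild-type strain N2 was grown on bacteria with the empty RNAi vector L4440. MET-1 and MES-4 are methyltransferases for lysine 36 of histone H3, and the series asked how expression changed when that methylation was depleted. The mothers of both groups grew on their RNAi bacteria for about 60 to 65 h at 20 °C. Their embryos hatched in buffer without food over 18 h, and the larvae then ate the same bacteria for 2 h 30 min before lysis. RNAi by feeding often lowers a transcript only in part, and no group carried the met-1 mutation or the mes-4 RNAi alone, so their effects cannot be told apart.

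Lysozymes cleave the peptidoglycan of bacterial cell walls. In C. elegans several lys genes are expressed in the intestine, where their products are thought to act both in the digestion of the bacteria that the worm eats and in defence against bacteria that infect it. Expression of single members is known to change with the bacterium eaten, with insulin signalling through DAF-16 (lys-7) and with the TGF-beta ligand DBL-1 (lys-8). Because the larvae had been refed for a short time after hatching without food, the levels below describe whole larvae at the start of feeding.

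Library totals ran from 29081819 to 35106597 counts in GW1183 mes-4(RNAi) larvae and from 32593317 to 33272359 in WT. The targeted transcript met-1 was at 115 and 111 CPM in GW1183 mes-4(RNAi) larvae, against 172 and 165 CPM in WT (CPM, counts scaled to the library total and by TMM factors), and it fell by DESeq2 (adjusted p = 0.0039) but was not called by edgeR (adjusted p = 0.111). The mes-4 transcript was at 26.2 and 28.3 CPM in GW1183 mes-4(RNAi) larvae, against 34.3 and 37.3 CPM in WT, with no overlap and a DESeq2 adjusted p of 0.337. Intestine RNA was present in every library: asp-1, an intestinal aspartic protease gene, was at 2504 and 2659 CPM in GW1183 mes-4(RNAi) larvae and at 2818 and 2604 CPM in WT. Of 17 intestine markers 16 passed the count filter, and end-1, an embryonic gut specification gene, was at or below 0.330 CPM in all 4 libraries. The summed level of the 17 markers was 7399 and 7680 CPM in GW1183 mes-4(RNAi) larvae, against 8277 and 7486 CPM in WT, so the groups overlapped. Single intestine markers differed in both directions. Of the 16 tested, 6 were without overlap, 3 higher and 3 lower, beside 44.9% of all tested genes. Their log2 fold changes were negative for 11 and positive for 5, and edgeR and DESeq2 called 0, beside 0% and 4.36% of all tested genes. Marker sums of other tissues mostly overlapped between the groups as well, although single markers differed. The sums were 7151 and 9782 CPM against 6288 and 7859 CPM for 5 body wall muscle genes, 4564 and 5107 against 4970 and 5102 CPM for 5 pharynx genes, and 97.2 and 115 against 114 and 146 CPM for 5 germline genes (GW1183 mes-4(RNAi) against WT). They were 95.3 and 98.4 against 88.9 and 101 CPM for 5 epidermis genes and 1749 and 1744 against 1807 and 1661 CPM for 6 neuron genes. Among the muscle markers all 5 log2 fold changes were positive, beside 7731 of all 15008 tested genes. DESeq2 called the myosin gene myo-3 higher (1.26, SE 0.34, adjusted p = 0.00263), beside 2.45% of all tested genes. Of the 5 germline markers 4 were without overlap, beside 44.9% of all tested genes, and 3 of them were lower, beside 22.2%. DESeq2 called the Piwi gene prg-1 lower (-1.10, SE 0.26, adjusted p = 0.00409), beside 1.92% of all tested genes. edgeR called neither gene (adjusted p = 0.201 and 0.171). Of these other tissues only the sum of 2 coelomocyte genes was without overlap, at 28.04 and 30.4 CPM in GW1183 mes-4(RNAi) larvae against 31.4 and 30.6 CPM in WT. In whole larvae, a different amount of intestine and a different RNA level per intestinal cell cannot be told apart, and the tissue that made each lysozyme read was not measured.

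The summed lysozyme transcript level differed less between the group means than between the 2 GW1183 mes-4(RNAi) libraries, and lys-1 and lys-8 made up most of it. Summed over the 10 genes, the level was 515 and 546 CPM in GW1183 mes-4(RNAi) larvae and 537 and 550 CPM in WT, a mean of 530 ± 21.7 against 543 ± 9.20 (SD, n = 2 each). One GW1183 mes-4(RNAi) library lay between the WT libraries and the other below them. The 2 leading genes together held 83.0% and 85.0% of the pool in GW1183 mes-4(RNAi) larvae, against 81.0% and 81.6% in WT. The whole family took 0.0537% and 0.0542% of all counts in GW1183 mes-4(RNAi) libraries and 0.0539% and 0.0529% in WT libraries.

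**Figure D1:**
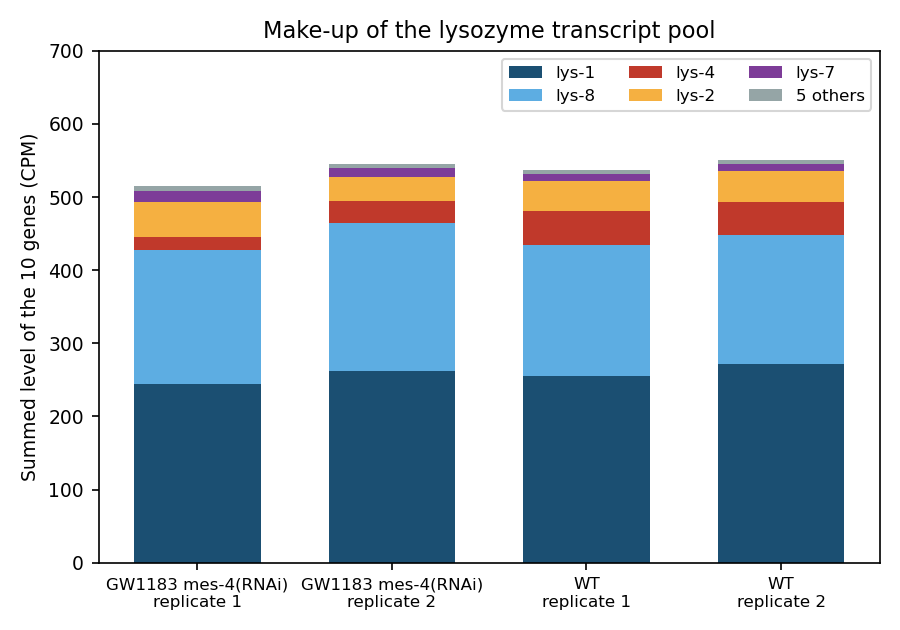
Summed level of the 10 lysozyme genes in CPM (vertical axis) for each of the 4 libraries, GW1183 mes-4(RNAi) on the left and WT on the right, divided by gene. The bars are of similar height (515 and 546 against 537 and 550 CPM), while the lys-4 segment is thinner in both GW1183 mes-4(RNAi) libraries.

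Levels of different genes are compared per kilobase of the deposited gene length (CPM per kb). In GW1183 mes-4(RNAi) larvae lys-1 was highest at 229 ± 11.1 CPM per kb, followed by lys-8 at 195 ± 13.7, lys-2 at 43.6 ± 11.7, lys-4 at 34.0 ± 13.2, lys-7 at 14.6 ± 2.16, lys-3 at 5.52 ± 1.25 and lys-10 at 1.38 ± 0.427 CPM per kb (SD, n = 2). In WT lys-1 was at 238 ± 10.4 CPM per kb, lys-8 at 181 ± 1.77, lys-4 at 62.9 ± 1.37, lys-2 at 44.6 ± 0.893, lys-7 at 11.3 ± 0.144, lys-3 at 3.88 ± 0.682 and lys-10 at 1.14 ± 0.170 CPM per kb. The order therefore differed below lys-8: lys-4 lay above lys-2 in both WT libraries, whereas their ranges overlapped in GW1183 mes-4(RNAi) larvae. The remaining neighbours down to lys-10 did not overlap within either group. Among all genes of the table lys-1 stood high, with 98.2% of genes at a lower level per kb in each group, and lys-8 exceeded 97.8% of genes in GW1183 mes-4(RNAi) larvae and 97.6% in WT.

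**Figure D2:**
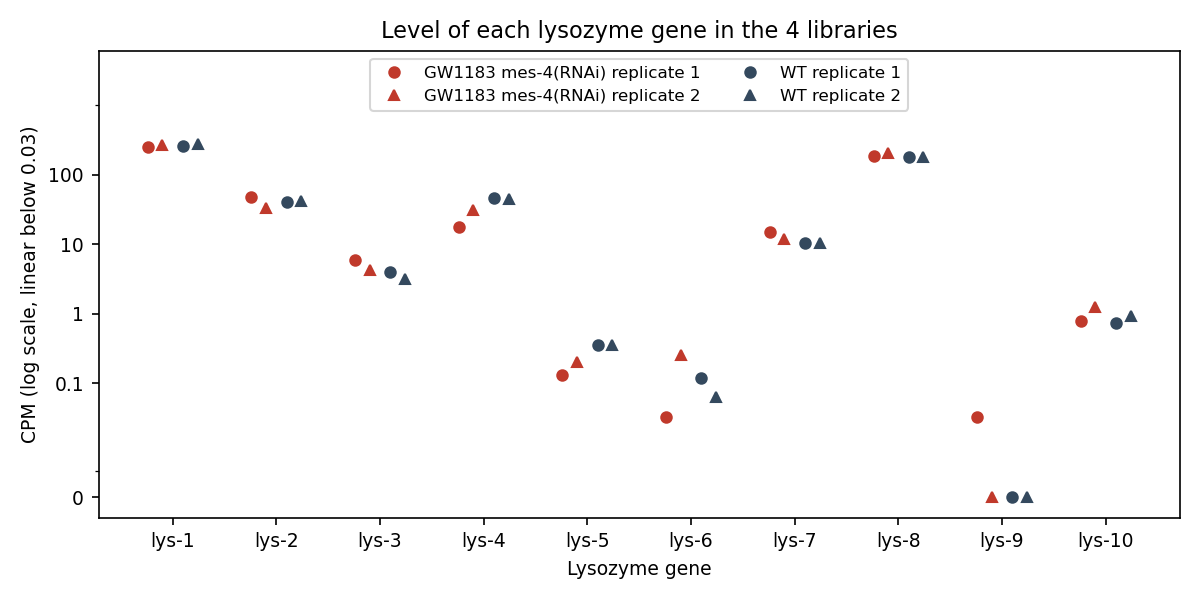
Level of each lysozyme gene in CPM (vertical axis, log scale that is linear below 0.03) in the 4 libraries, with circles for replicate 1 and triangles for replicate 2, GW1183 mes-4(RNAi) in red on the left of each gene and WT in dark blue on the right. The genes span from 271 CPM (lys-1, WT replicate 2) to 0, and lys-4 and lys-5 have both red points below both blue points.

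No lysozyme gene passed the group test without a replicate term, by edgeR or by DESeq2. Of the 10 genes, 8 passed the filter on low counts and were tested, and lys-6 and lys-9 did not. With edgeR's quasi-likelihood test 0 of the 8 were called, beside 0% of the 15008 genes tested. At an unadjusted p under 0.05 edgeR counted 1 of the 8, lys-4, beside 14.6% of all tested genes. DESeq2 also called 0 of the 8, against 4.36% of all tested genes. Groups were free of overlap for 5 of the 8, beside 44.9% of all tested genes. They were lower for lys-4 and lys-5, beside 22.2% of all tested genes, and higher for lys-3, lys-7 and lys-8, beside 22.7%. The lys-5 gene passed the filter only through its WT counts (12 and 11, against 4 and 7), so the filter favoured its place among the lower genes. The log2 fold changes (GW1183 mes-4(RNAi) over WT, from edgeR) were positive for 4 and negative for 4, with a median of 0.04, beside a median of 0.01 over all tested genes. The series calls its replicates independent, but the labels do not describe their cultures, so these p-values measure the spread between libraries, which may in part be technical.

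**Figure D3:**
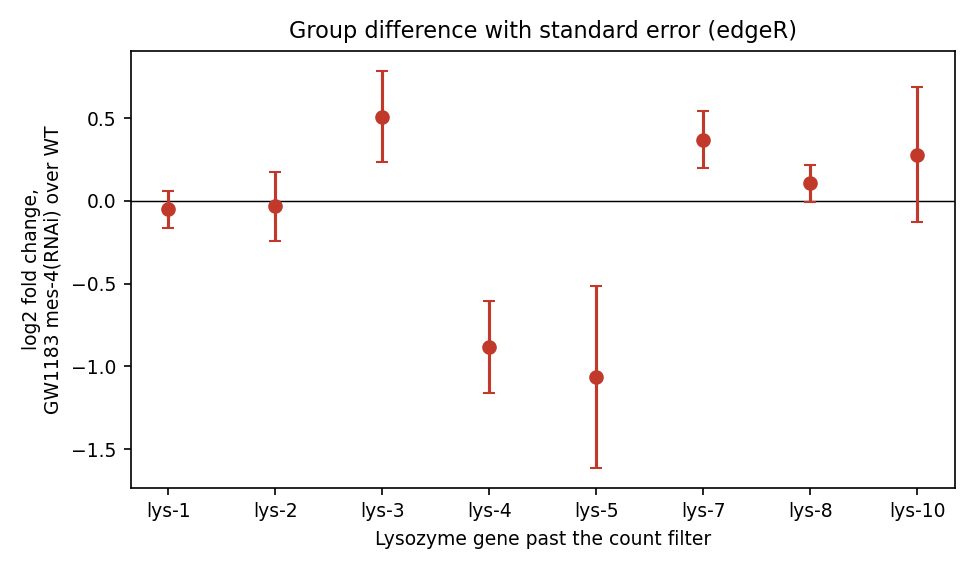
Log2 fold change of GW1183 mes-4(RNAi) over WT (vertical axis) for the 8 lysozyme genes past the count filter, points with standard errors from edgeR. The abundant lys-1 and lys-2 lie near 0 (-0.05 and -0.03), lys-4 is at -0.88 and lys-5 at -1.07, and no gene passed the adjusted test.

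For each of lys-1, lys-8 and lys-2 the group means lay close together. Of these and lys-7, only lys-8 and lys-7 were higher in both GW1183 mes-4(RNAi) libraries. The lys-1 gene, which is expressed in the intestine and is known for its response to Serratia marcescens, was at 245 and 262 CPM in GW1183 mes-4(RNAi) larvae and at 255 and 271 CPM in WT. The libraries of the groups interleaved. Its log2 fold change was -0.05 (SE 0.11, edgeR adjusted p = 0.887), and its lowest library held 7436 counts, so counting error was 1.16% or less.

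The lys-8 gene, known as a target of DBL-1 signalling, was at 183 and 202 CPM in GW1183 mes-4(RNAi) larvae and at 180 and 177 CPM in WT. Both GW1183 mes-4(RNAi) libraries were above both WT libraries, by a margin smaller than the difference between the GW1183 mes-4(RNAi) libraries themselves. The log2 fold change was 0.11 (SE 0.11, edgeR adjusted p = 0.74). Within each library, which removes the scaling, the ratio of lys-1 to lys-8 counts was 1.34 and 1.30 in GW1183 mes-4(RNAi) larvae and 1.42 and 1.53 in WT.

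The lys-2 gene, the neighbour of lys-1, was at 47.9 and 32.6 CPM in GW1183 mes-4(RNAi) larvae, one on each side of the 40.6 and 41.7 CPM of the WT libraries. The group means, 40.2 ± 10.8 and 41.2 ± 0.825 CPM (SD, n = 2), differed by less than the spread of the GW1183 mes-4(RNAi) libraries (log2 fold change -0.03, SE 0.21, edgeR adjusted p = 0.971). Its sign turned to positive with library size scaling (0.025) or a filter of 5 CPM (0.012), and also without GW1183 mes-4(RNAi) replicate 2 (0.22).

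The lys-7 gene, a known target of the FoxO factor DAF-16, was at 14.8 and 12.0 CPM in GW1183 mes-4(RNAi) larvae, against 10.2 and 10.4 CPM in WT. Both GW1183 mes-4(RNAi) libraries were the higher ones. The log2 fold change of 0.37 (SE 0.17) had an unadjusted p of 0.0834 and an edgeR adjusted p of 0.422. The transcript of daf-16 itself was at 111 and 112 CPM in GW1183 mes-4(RNAi) larvae and at 108 and 121 CPM in WT, with overlap.

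The lys genes lie in part in clusters. In the annotation of assembly WBcel235, used for names and neighbours only because the authors' build was ce10, lys-1, lys-2 and lys-3 follow each other on chromosome V, and lys-4, lys-5 and lys-6 follow each other on chromosome IV. The other members are apart, lys-7 on chromosome V, lys-8 on II, lys-9 on I and lys-10 on IV between the histone genes his-30 and his-31. No member overlaps another gene of the count table in that annotation. However, lys-8 overlaps the protein-coding gene C17G10.13 and lys-4 overlaps a piRNA gene, and neither of these is in the count table. Whether their reads were counted as lys-8 or lys-4 was not tested. Reads shared between similar lys genes could have been split or lost, since the sources used here do not give the counting rules.

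The largest difference of a well-counted member was in the chromosome IV cluster. The lys-4 gene was at 17.9 and 31.4 CPM in GW1183 mes-4(RNAi) larvae, against 46.2 and 44.8 CPM in WT. Both GW1183 mes-4(RNAi) libraries were below both WT libraries, and they differed from each other by 1.75-fold while the WT libraries were nearly equal. The means were 24.6 ± 9.55 CPM in GW1183 mes-4(RNAi) larvae and 45.5 ± 0.991 CPM in WT (SD, n = 2), a log2 fold change of -0.88 (SE 0.28), or 1.84-fold lower. The unadjusted p was 0.0238, the edgeR adjusted p 0.258 and the DESeq2 adjusted p 0.0567, so neither test called it. Relative to lys-8 in the same library, lys-4 was at 0.0980 and 0.156 in GW1183 mes-4(RNAi) larvae, against 0.257 and 0.253 in WT, without overlap. The lys-8 level was itself somewhat higher in both GW1183 mes-4(RNAi) libraries, which enlarges the difference in this ratio. The size rested on the individual GW1183 mes-4(RNAi) library. Without GW1183 mes-4(RNAi) replicate 2 the log2 fold change was -1.34 (edgeR adjusted p = 0.125), and DESeq2 then called lys-4 (adjusted p = 0.000993, beside 0.48% of tested genes called lower in that fit). Without GW1183 mes-4(RNAi) replicate 1 it was -0.54 (edgeR adjusted p = 0.378, DESeq2 adjusted p = 0.706).

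The next gene of that cluster, lys-5, which has been tied to resistance against Bacillus thuringiensis, was near the limit of detection. It had 4 and 7 counts in GW1183 mes-4(RNAi) larvae, against 12 and 11 counts in WT. The groups were apart, but their counting intervals overlapped: 0.0359 to 0.337 CPM and 0.0808 to 0.414 CPM in GW1183 mes-4(RNAi) larvae, against 0.186 to 0.628 CPM and 0.175 to 0.628 CPM in WT (exact 95% Poisson intervals, which cover counting error only). The log2 fold change was -1.07 (SE 0.55, edgeR adjusted p = 0.462), and DESeq2 gave no adjusted p. The third gene of the cluster, lys-6, had 1 and 9 counts in GW1183 mes-4(RNAi) larvae and 4 and 2 counts in WT, with no order between the groups. Of the coding genes beside the cluster, F58B3.4 was at 173 and 177 CPM in GW1183 mes-4(RNAi) larvae, against 225 and 234 CPM in WT (log2 fold change -0.39, SE 0.10, edgeR adjusted p = 0.201). On the other side dsl-5 was at 1.19 and 2.12 CPM in GW1183 mes-4(RNAi) larvae and at 0.988 and 1.82 CPM in WT, with overlap. These neighbours were looked up after the values of lys-4 and lys-5 had been seen.

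In the chromosome V cluster the third gene went the other way. The lys-3 gene was at 5.90 and 4.28 CPM in GW1183 mes-4(RNAi) larvae, against 4.01 and 3.13 CPM in WT. The lower GW1183 mes-4(RNAi) library was just above the higher WT library. The log2 fold change was 0.51 (SE 0.28, edgeR adjusted p = 0.486), on 98 to 179 counts per library. On its far side B0024.3 was at 3.62 and 4.59 CPM in GW1183 mes-4(RNAi) larvae and at 4.82 and 4.82 CPM in WT.

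The last members were low or undetected in both groups. The lys-10 gene had 24 and 43 counts in GW1183 mes-4(RNAi) larvae and 25 and 29 counts in WT, that is 0.791 and 1.23 CPM against 0.749 and 0.925 CPM, with overlap (log2 fold change 0.28, SE 0.41, edgeR adjusted p = 0.827). Its sign turned negative without GW1183 mes-4(RNAi) replicate 2 (-0.08). The lys-9 gene had 1 and 0 counts in GW1183 mes-4(RNAi) larvae and 0 and 0 counts in WT. A count of 0 allows 3 counts, which is 0.0861 CPM in GW1183 mes-4(RNAi) replicate 2 and 0.0898 to 0.0957 CPM in the WT libraries, so lys-9 RNA was not detectable at this depth in WT.

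For lys-1 and lys-10 the difference between replicates was larger than the difference between the groups in GW1183 mes-4(RNAi) larvae and in WT, and for lys-2 and lys-8 it was larger in GW1183 mes-4(RNAi) larvae but not in WT. For each of the 8 tested genes the difference between replicates 1 and 2, on log2(CPM + 0.5), was larger in GW1183 mes-4(RNAi) larvae than in WT, beside 53.4% of all tested genes. The median size of that difference over the 8 was 0.36 in GW1183 mes-4(RNAi) larvae and 0.04 in WT, beside 0.22 and 0.20 over all tested genes. The largest was that of lys-4 in GW1183 mes-4(RNAi) larvae, 0.79, which exceeded 92.7% of tested genes, followed by lys-2 at -0.55 (85.2%). In WT the largest was lys-3 at -0.32, which exceeded 68.5% of tested genes. The difference between the groups was larger than both replicate differences for 4 of the 8 genes (lys-3, lys-4, lys-5 and lys-7), beside 34.4% of all tested genes. Of these, lys-5 passed the count filter only through its WT libraries, which favours a group difference.

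The members did not share one direction between replicates. In GW1183 mes-4(RNAi) larvae replicate 2 was higher than replicate 1 for lys-1, lys-4, lys-5, lys-8 and lys-10 and lower for lys-2, lys-3 and lys-7. The replicate difference had the same sign in both groups for 3 of the 8 genes (lys-1, lys-3 and lys-10), beside 73.3% of all tested genes. For lys-4 the signs were opposite, 0.79 in GW1183 mes-4(RNAi) larvae and -0.04 in WT. The values for lys-5 are compressed by the added 0.5 CPM, which exceeds its level.

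**Figure D4:**
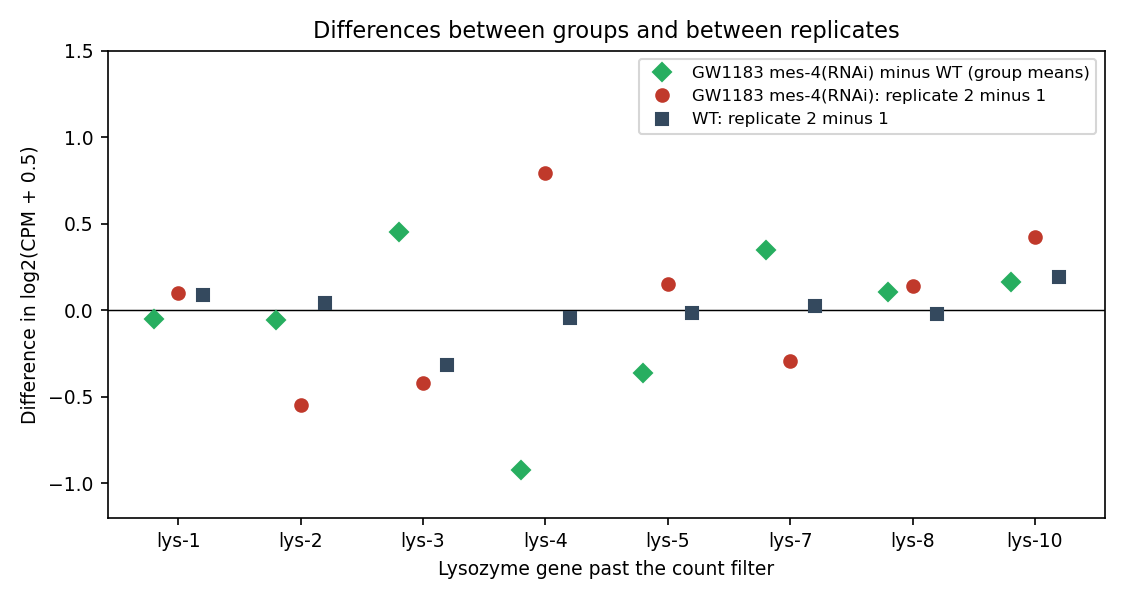
Differences in log2(CPM + 0.5) (vertical axis) for the 8 lysozyme genes past the count filter: GW1183 mes-4(RNAi) minus WT group means (green diamonds), replicate 2 minus replicate 1 in GW1183 mes-4(RNAi) larvae (red circles) and in WT (dark blue squares). For lys-4 the group difference (-0.93) and the GW1183 mes-4(RNAi) replicate difference (0.79) are both large, and the WT replicate difference is near 0 (-0.04).

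The 6 ilys genes encode invertebrate-type lysozymes, a separate enzyme family. Of the 4 that passed the filter 0 were called by edgeR or DESeq2, beside 0% and 4.36% of all tested genes. Their median log2 fold change was 0.36. The most abundant, ilys-5, was at 79.5 and 158 CPM in GW1183 mes-4(RNAi) larvae and at 124 and 158 CPM in WT, with overlap (-0.25, SE 0.34). The ilys-4 gene was at 40.2 and 36.5 CPM in GW1183 mes-4(RNAi) larvae, inside the 44.6 and 29.8 CPM of WT. The ilys-3 gene, known to respond to Gram-positive bacteria, was low but apart, at 1.09 and 1.43 CPM in GW1183 mes-4(RNAi) larvae against 0.270 and 0.319 CPM in WT. That was 33 and 50 counts against 9 and 10, a log2 fold change of 2.09 (SE 0.41) with adjusted p of 0.123 by edgeR and 0.137 by DESeq2. The ilys-3 gene passed the count filter only through its GW1183 mes-4(RNAi) counts. The filter therefore favoured its place among the higher genes, and it enters the median of 0.36. The ilys-2 gene had 4 and 26 counts in GW1183 mes-4(RNAi) larvae and 11 and 7 in WT. The ilys-1 gene had 6 and 20 counts in GW1183 mes-4(RNAi) larvae and no count in either WT library, while ilys-6 had 1 and 0 counts against 3 and 2.

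The saposin-like spp genes include the caenopores, pore-forming peptides of the gut. Of the 27 measured, 20 passed the filter, with 0 called by edgeR or DESeq2, beside 0% and 4.36% of all tested genes, and a median log2 fold change of 0.12. The most abundant per length was spp-5, at 354 and 553 CPM in GW1183 mes-4(RNAi) larvae and at 523 and 541 CPM in WT, with overlap (-0.23, SE 0.23).

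**Figure D5:**
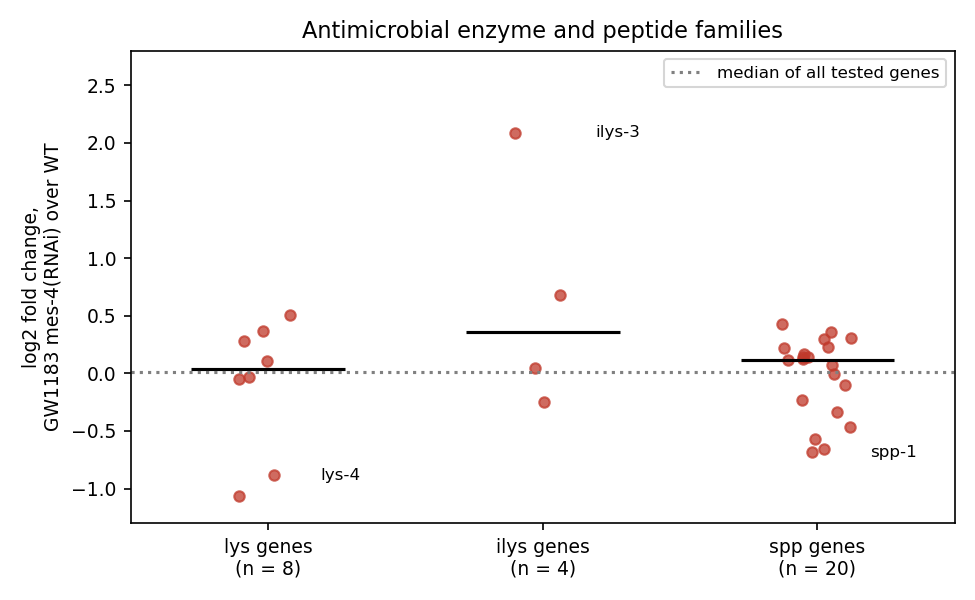
Log2 fold change of GW1183 mes-4(RNAi) over WT (vertical axis) for the tested genes of 3 families, one point per gene, with the median of each family as a bar and the median of all tested genes (0.01) as a dotted line. The family medians are 0.04 for lys, 0.36 for ilys and 0.12 for spp genes, with lys-4, ilys-3 and spp-1 named. The ilys-3 gene passed the count filter only through its GW1183 mes-4(RNAi) counts, which favours a high fold change.

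Genes known to control lysozymes or gut defence were tested as a further list. All 21 passed the filter, and 0 were called by edgeR or DESeq2, beside 0% and 4.36% of all tested genes. The median log2 fold change was -0.08. For 6 of the 21 the groups were apart, beside 44.9% of all tested genes. The bZIP gene zip-2, a regulator of the response to Pseudomonas aeruginosa, was at 588 and 309 CPM in GW1183 mes-4(RNAi) larvae, against 299 and 237 CPM in WT (0.74, SE 0.33, edgeR adjusted p = 0.395). Per length it was the most abundant of the list in GW1183 mes-4(RNAi) larvae, at 244 CPM per kb against 170 for atf-7, a bZIP gene of the p38 pathway, whereas in WT atf-7 was above it, at 169 against 146 CPM per kb. The GATA factor gene elt-2, which drives intestinal expression, was at 15.4 and 23.0 CPM in GW1183 mes-4(RNAi) larvae and at 17.3 and 23.95 CPM in WT, so it differed more between replicates than between groups. The p38 kinase gene pmk-1 was at 25.3 and 25.3 CPM in GW1183 mes-4(RNAi) larvae and at 26.4 and 23.5 CPM in WT. The ligand gene dbl-1 was at 31.3 and 23.4 CPM in GW1183 mes-4(RNAi) larvae and at 38.9 and 30.3 CPM in WT (-0.34, SE 0.21), with overlap.

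Genes that change on fasting differed in both directions. Of 14 listed genes 13 passed the filter, and DESeq2 called 2 higher and 1 lower (beside 2.45% and 1.92% of all tested genes) while edgeR called 0. The hacd-1 gene, which encodes a hydroxyacyl-CoA dehydrogenase, rose to 21.3 and 19.5 CPM in GW1183 mes-4(RNAi) larvae, against 7.46 and 10.7 CPM in WT (1.16, SE 0.22, DESeq2 adjusted p = 0.00173). The metallothionein gene mtl-1 rose to 4.12 and 6.05 CPM in GW1183 mes-4(RNAi) larvae, against 2.04 and 0.925 CPM in WT (1.78, SE 0.45, DESeq2 adjusted p = 0.0233). The enoyl-CoA hydratase gene ech-6 fell to 59.8 and 65.7 CPM in GW1183 mes-4(RNAi) larvae, against 115 and 110 CPM in WT (-0.84, SE 0.11, DESeq2 adjusted p = 1.5e-05). The glyoxylate cycle gene icl-1 differed mainly between replicates, at 1658 and 711 CPM in GW1183 mes-4(RNAi) larvae and at 1215 and 520 CPM in WT. The median log2 fold change of the 13 was 0.45, and the part of feeding state in the lysozyme levels was not tested.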

How the data were processed

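The authors deposited raw counts per gene with gene lengths, and a second table of normalized log2 values that equal log2(count × factor + 8) with 1 factor per library (0.887 to 1.07), as worked out from the values. Per the submitters' processing notes the build was ce10. For the aligner, counting program and strand setting: not given in the sources used here. Per the labels' protocols, total RNA entered the Illumina ScriptSeq Complete Gold kit. Symbols came from WormBase names (19182 identifiers matched).

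Counts were tested in R 4.3.3 with edgeR 4.0.16 (filterByExpr, TMM, glmQLFit and glmQLFTest) over 15008 genes, Benjamini-Hochberg adjusted, threshold 0.05. SE is the size of the log2 fold change over the root of its F statistic. DESeq2 1.42.0 and limma 3.58.1 were alternatives. CPM uses totals over all genes times TMM factors (0.962 to 1.04). The biological coefficient of variation was 22.1%. The procedure was tested on simulated data. Figures used matplotlib 3.10.9. Members, companion lists and tests were chosen with earlier results of these data known. Named were all members and ilys genes, the targeted genes and, of the spp, regulator, intestine and fasting lists, called members (up to 3) and the most abundant per length. Genes given besides these (asp-1 to check the intestine, end-1, daf-16, elt-2, pmk-1, dbl-1, atf-7, myo-3, prg-1, spp-1, mtl-2 and cluster neighbours) were chosen after values were seen. The search for GATA motifs in promoters was not run here, as no sequences were used.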

Additional observations from a re-analysis of the deposited data

How the results depend on the processing

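Over all genes, edgeR without a block called 0, against 655 by DESeq2, 128 without a filter, 2 at a minimum of 5 CPM in 2 libraries and 0 to 27 when 1 library was left out, the 27 without GW1183 mes-4(RNAi) replicate 1. With the replicate block edgeR called 3047 genes and 1 lysozyme gene, lys-4, lower (log2 fold change -0.93, adjusted p = 0.00788). The labels do not say that a number marks a shared culture. Replicate differences of the groups correlated across genes at 0.646. Of the lysozyme genes, 0 were called in each other planned fit, and 0 to 1 with DESeq2 leaving out 1 library, an alternative added after seeing the data. Of 125 fold changes under alternatives, 117 kept sign and side of the threshold, 2 (both lys-4) passed it and 6 changed sign: lys-2 with library size only (0.025), with 5 CPM (0.012) and when 1 library was left out (-0.34 to 0.22), and lys-10 when 1 library was left out (-0.077 to 0.56 with edgeR, and -0.081 with DESeq2). The log2 ratio of the summed levels was -0.04, and -0.08 to 0.01 when 1 library was left out. Where a group was left with 1 library, that library was assumed to vary like the other group. For lys-4 the adjusted p was 0.0567 to 0.581 over planned fits without a block. Depth limits lys-5, lys-6, lys-9 and lys-10, which had at most 43 counts in any library.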

Other observations

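The genes closest to lys-1 in pattern over the 4 libraries, by distance between centred log2(CPM + 0.5) values among 9776 genes with a mean of at least 5 CPM over the 4 libraries, were lir-2 (distance 0.0095), vps-22 (0.0100), unc-13 (0.0110), mdf-2 (0.0116) and F39G3.5 (0.0139), against a median of 0.307. With 4 libraries such nearness is easily met by genes that hardly vary.

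For lys-4 the same measure, applied after its values were seen, gave clec-53 (0.179), Y48A5A.3 (0.196), nsun-4 (0.203), spp-1 (0.204) and F26F4.12 (0.245), against a median of 1.07. The C-type lectin gene clec-53 was at 5.21 and 8.81 CPM in GW1183 mes-4(RNAi) larvae, against 15.7 and 14.2 CPM in WT (log2 fold change -1.09, DESeq2 adjusted p = 0.028, edgeR adjusted p = 0.192). The caenopore gene spp-1 was at 19.1 and 32.7 CPM in GW1183 mes-4(RNAi) larvae, against 42.4 and 40.9 CPM in WT (-0.68, edgeR adjusted p = 0.344). The rRNA methyltransferase gene nsun-4 was at 7.61 and 12.1 CPM in GW1183 mes-4(RNAi) larvae, against 19.4 and 21.3 CPM in WT (-1.04, DESeq2 adjusted p = 0.0157, edgeR adjusted p = 0.173). These genes were picked for that pattern, so the order of their libraries is given by the choice. The choice also favours negative fold changes and low p-values, so these values are no separate evidence of a group difference.

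The intestinal metallothionein gene mtl-2 was at 16.5 and 116 CPM in GW1183 mes-4(RNAi) larvae, against 10.1 and 12.0 CPM in WT (edgeR adjusted p = 0.292). Both GW1183 mes-4(RNAi) libraries were above both WT libraries, but the size of the difference came mainly from GW1183 mes-4(RNAi) replicate 2.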
